A study of Mus musculus with 3 samples.

Results

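Matrix proteases and their inhibitors were followed across the epithelial cell classes of the mouse mammary gland. Every gene was taken whose symbol starts with Adamts, with Adam or Mmp and a digit, or with Timp and a digit, which gave 64 of the 19050 genes in the count tables. They comprise 19 ADAMs, 19 ADAMTS proteases, 5 ADAMTS-like genes, 17 matrix metalloproteinases (MMPs) and 4 TIMPs. Not all of them are active proteases: the ADAMTS-like proteins lack the protease domain, and Adam11, Adam22 and Adam23 encode ADAMs without a working catalytic site. The cells were mammary epithelial cells of female FVB/NJ mice, 10 weeks old, with no treatment named in the labels, and all 3 libraries belong to 1 group. Each library was described as the number 4 glands of 4 pooled mice, dissociated with collagenase and trypsin and sorted as live epithelium after staining for CD49f, EpCAM, CD31, CD45 and Ter119. Transcripts were counted by droplet single-cell RNA-seq of the 3' end, with a unique molecular identifier (UMI) on each captured molecule. The labels do not say whether the libraries came from separate pools of mice, so the p-values cover only how far these libraries differ, and that spread may be technical.

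MMPs are zinc proteases that are secreted as inactive precursors or held at the cell membrane, and together they can cut most proteins of the extracellular matrix. ADAMs are membrane-bound relatives that release the outer parts of growth factors and receptors, and ADAMTS proteases are secreted and cut proteoglycans, procollagens and elastic-fibre proteins. TIMPs bind and block MMPs and, for some TIMPs, ADAMs and ADAMTS proteases. In the mammary gland, basal (myoepithelial) cells lie on the basement membrane and surround the luminal cells, and remodelling of that matrix accompanies duct growth and involution.

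Cells were put into 3 classes by the UMI sums of 11 genes: Krt5, Krt14 and Acta2 for basal cells, Csn3, Elf5, Kit and Aldh1a3 for luminal progenitor cells, and Prlr, Areg, Pgr and Esr1 for hormone-responsive cells. A cell needed at least 5 UMIs of its top sum and at least 3 times as many as of each other sum. Of 24383 cells kept, 9775 were basal, 7974 luminal progenitor and 2527 hormone-responsive, and 4107 (16.84%) stayed unclassified. A class is a range of these sums, and 1519 basal, 2200 luminal progenitor and 637 hormone-responsive cells lay near the limits, since a rule of 10 UMIs and 5 times removed them. The median basal cell held 19 UMIs of its own sum and 0 of either other sum, the median luminal progenitor cell 16 and 0, and the median hormone-responsive cell 15 of its own, 1 basal and 0 luminal progenitor UMIs. The libraries held 6691, 9034 and 11120 barcodes with 18584156, 27220670 and 30984706 UMIs, and pairs of libraries shared 77, 129 and 146 barcode sequences. Library 1 stood apart. Its basal share was 24.91%, against 52.45% and 38.98%, and a chi-square of its counts against another library lay between 15.3 and 91.5 per degree of freedom, against 5.31 to 15.7 between libraries 2 and 3. The epithelial marker Epcam was present in every sum, at 257 to 1862 CPM (UMIs scaled to a total of 1000000). The immune marker Ptprc reached at most 0.406 CPM. All 8 immune markers summed to 22.3 to 48.3 CPM in basal, 3.32 to 49.8 CPM in luminal progenitor and 1.60 to 15.5 CPM in hormone-responsive cells. Of these, Cd74 alone gave 20.3 to 44.1 CPM in basal cells and 46.8 CPM in luminal progenitor cells of library 3. All 8 fibroblast markers were detected among basal cells. They summed to 102.2, 273 and 337 CPM in libraries 1, 2 and 3, against 17.6 to 51.4 CPM in luminal progenitor and 156 to 193 CPM in hormone-responsive cells, with Lum and Dpt at 0 in basal cells of library 1. Dcn alone, which hormone-responsive cells also carried, gave 74.8, 221 and 246 CPM of the basal sums.

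UMIs were summed per library and class, and the 9 sums were compared with edgeR's quasi-likelihood test, in which each library formed a block. Calls needed an adjusted p (Benjamini-Hochberg, over all genes tested) under 0.05 together with a difference of 2-fold or more. A filter on low counts left 34 of the 64 members and 12667 genes in all; the other 30 members are accounted for further on. Against luminal progenitor cells, 18 members were higher in basal cells and 4 were lower, which is 52.9% and 11.8% of those tested. Over all genes tested, 17.2% were higher in basal cells and 14% higher in luminal progenitor cells. Against hormone-responsive cells, 23 members were higher in basal cells (67.6% of those tested) where 20.7% of all genes were, and 3 were lower (8.82%) where 15.2% of all genes were. Between the luminal classes, 7 members were higher in luminal progenitor cells (20.6%, against 14.2% of all genes) and 5 in hormone-responsive cells (14.7%, against 10.4%). The median log2 fold change of the tested members was 2.01 for basal over luminal progenitor, 2.63 for basal over hormone-responsive and 0.14 for luminal progenitor over hormone-responsive cells. The medians of all genes tested were -0.08, -0.00348 and 0.06. Members reached the test only with counts in some class, so these shares describe the tested members, not all 64. The members were also chosen with earlier results of these data known. The levels of 26, 28 and 15 tested members did not overlap between the 3 libraries of each class in the same comparisons, 76.5%, 82.4% and 44.1% of 34, beside 54.8%, 60.2% and 46.5% of all genes. For the luminal classes this share is near the background and is not a result about the members.

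**Figure D1:**
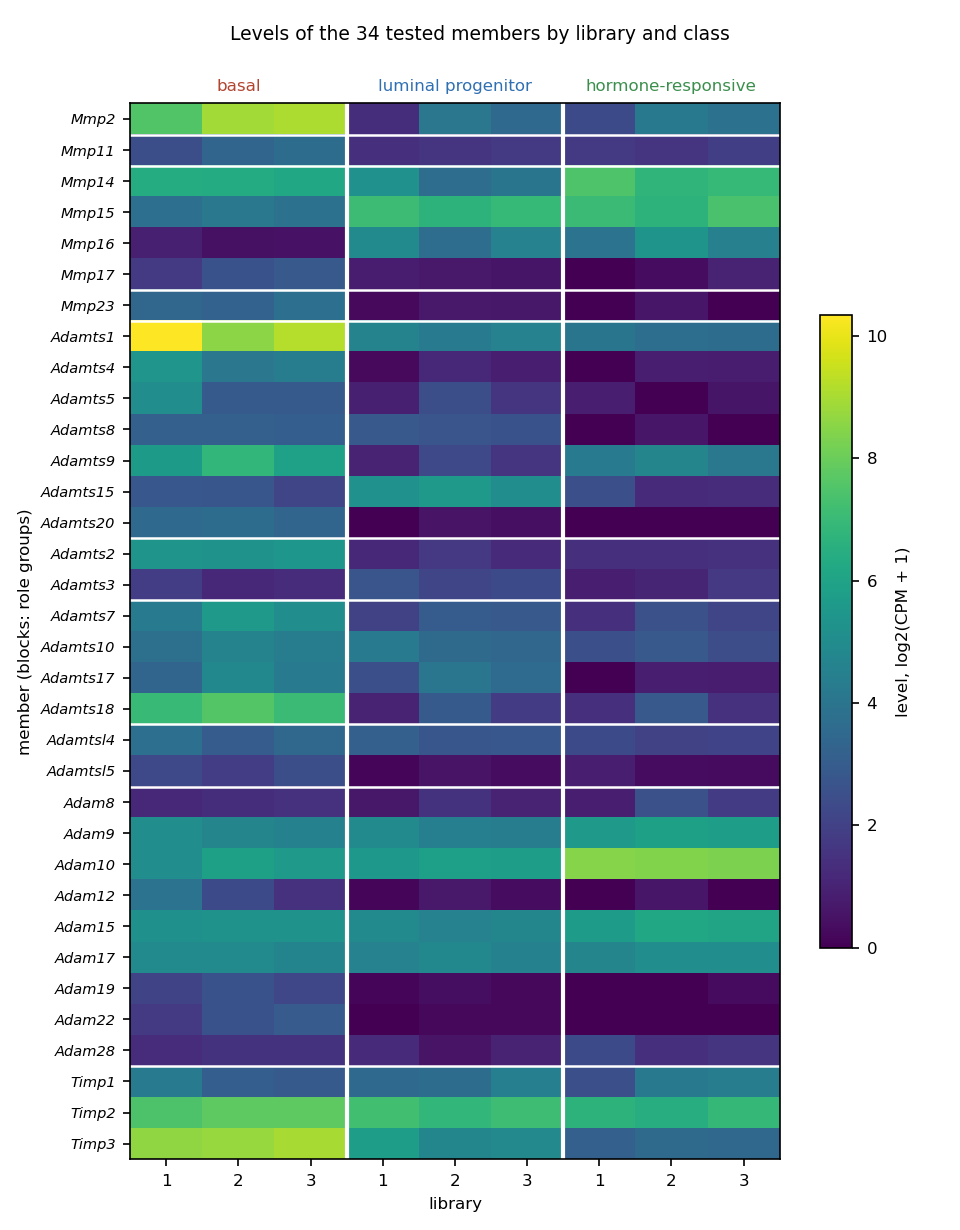
Level of each tested member (rows, blocked by role) in each library of the 3 classes (columns), as log2(CPM + 1) from dark (0) to bright. The rows of Mmp2, Adamts1 and Adamts18 are brightest in the 3 basal columns. Those of Mmp15 and Mmp16 are brighter in the 6 luminal columns than in the basal ones, and Adam10 is brightest in hormone-responsive cells.

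Of the gelatinases, which cut denatured collagen and basement-membrane collagen, Mmp2 was a basal gene and Mmp9 was all but absent. Mmp2 (chr8:92827291-92853420, mm10, plus strand) stood at 184, 481 and 539.9 CPM in basal cells of libraries 1, 2 and 3. In luminal progenitor cells it stood at 1.56, 15.98 and 10.7 CPM and in hormone-responsive cells at 4.01, 17.1 and 13.5 CPM. Every basal library was above every luminal one, and library 1 was the lowest in each class. The fitted log2 fold change was 5.61 ± 0.92 over luminal progenitor cells, where ± is the SD over the 3 libraries of the log2 ratio within each (n = 3), with an edgeR adjusted p of 1.54e-06. Over hormone-responsive cells it was 5.32 ± 0.39 (edgeR adjusted p = 2.85e-06). The order of the basal libraries was also that of the fibroblast-marker sum, and the 168 cells with 3 or more fibroblast markers held Mmp2 at 1642 CPM (exact Poisson interval 1516 to 1776, counting error only). Without the cells that held any UMI of a fibroblast or pericyte marker other than Dcn and Notch3, which removed 6.53%, 13.2% and 12.1% of the basal cells, basal Mmp2 was 186, 481 and 541 CPM and the log2 fold changes were 5.67 and 5.36. Mmp9 had 2 UMIs in all basal, 2 in all luminal progenitor and 0 in all hormone-responsive cells.

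Among the stromelysins and matrilysin, Mmp11 alone was tested. Mmp11, which is activated inside the cell by furin, was low in every class. Its basal levels of 4.52, 9.34 and 11.5 CPM lay above those of 1.66, 1.997 and 2.36 CPM in luminal progenitor and 2.405, 1.93 and 2.75 CPM in hormone-responsive cells. The log2 fold change was 2.00 ± 0.41 (edgeR adjusted p = 0.000265) over luminal progenitor and 2.02 ± 0.64 (edgeR adjusted p = 0.000628) over hormone-responsive cells. Its exons share 155 bases with Chchd10 on the opposite strand, a gene with 290, 3217 and 1499 UMIs in the basal, luminal progenitor and hormone-responsive classes, and the sources do not give whether the counting used strand. Mmp23, an MMP with a cysteine-rich array, gave 9.64, 8.57 and 12.7 CPM in basal cells, 0.195, 0.614 and 0.5903 CPM in luminal progenitor cells and 0, 0.552 and 0 CPM in hormone-responsive cells. No basal library overlapped a luminal one. In the fit, the log2 fold change was 4.41 ± 0.56 (edgeR adjusted p = 5.34e-05) over luminal progenitor cells, and over hormone-responsive cells, which held 2 UMIs, the pooled ratio was 45.2-fold (12.4 to 376) (95% counting interval in parentheses). The fitted log2 value of 5.53 over that class was 9.32 without library 2, where no UMI was left in it, and 4.56 without library 3.

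The membrane-type MMPs, which are anchored at the cell surface, divided between the classes. Of 4 tested members, Mmp14 and Mmp17 were higher in basal than in luminal progenitor cells, and Mmp15 and Mmp16 were lower. Mmp14 (chr14:54431612-54445364, plus strand) activates the Mmp2 precursor at the cell surface together with Timp2. It gave 84.1, 80.8 and 73.5 CPM in basal cells, 36.1, 11.8 and 15.1 CPM in luminal progenitor cells and 179, 108 and 120.4 CPM in hormone-responsive cells. The 3 classes did not overlap: hormone-responsive cells were highest, basal cells between and luminal progenitor cells lowest. Basal over luminal progenitor cells the log2 fold change was 2.02 ± 0.73 (edgeR adjusted p = 0.000122), and luminal progenitor over hormone-responsive cells it was -2.63 ± 0.46 (edgeR adjusted p = 4.2e-05). The difference between basal and hormone-responsive cells, at -0.61 ± 0.27 (edgeR adjusted p = 0.0429), was under 2-fold and was not called. The highest levels of Mmp14 and Mmp2 thus stood in different classes. The 250 bases before the start of Mmp14 are shown because its order over the classes differs from that of Mmp2. The RefSeq window of build GRCm38.p6 is chr14:54431348-54431597 on the plus strand, and capitals mark GC boxes (GGGCGG) and CCAAT boxes, searched on both strands (CCAAT reads ATTGG on the other). The last CCAAT box and a GC box overlap by a base.
Mmp14: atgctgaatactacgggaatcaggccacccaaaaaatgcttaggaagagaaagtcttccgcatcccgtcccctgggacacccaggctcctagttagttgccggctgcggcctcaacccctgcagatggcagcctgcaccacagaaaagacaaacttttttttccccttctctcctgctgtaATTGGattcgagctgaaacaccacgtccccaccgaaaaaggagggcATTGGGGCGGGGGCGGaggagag

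It holds 2 GC boxes and 2 CCAAT boxes. The other motifs searched, a TATA box (TATAAA), an AP-1 site (TGANTCA) and an E-box (CACGTG), were not found in it. Of 32817 windows of this length in the table, 32.7% hold a GC box, 33.8% a CCAAT box, 12.4% a TATA box, 6.75% an AP-1 site and 6.02% an E-box. Mmp15 (chr8:95352268-95375080, plus strand), another transmembrane MMP, gave 12.7, 16.5 and 13.4 CPM in basal cells, 137, 102 and 120.4 CPM in luminal progenitor cells and 131, 103 and 163 CPM in hormone-responsive cells. Both luminal classes lay far above basal cells and overlapped each other. The log2 fold change of basal cells was -3.08 ± 0.37 (edgeR adjusted p = 2.52e-06) against luminal progenitor and -3.08 ± 0.46 (edgeR adjusted p = 2.66e-06) against hormone-responsive cells, and 0.00 ± 0.23 between the luminal classes, which was not called. Mmp16 (chr4:17852893-18119145, plus strand) gave 0.904, 0.385 and 0.406 CPM in basal cells, 29.6, 12.1 and 23.3 CPM in luminal progenitor cells and 14.4, 39.5 and 21.98 CPM in hormone-responsive cells. Basal cells were near 0, with 10 UMIs in all, while the luminal classes overlapped and varied between libraries, with library 2 lowest in one and highest in the other. Its log2 fold changes were -5.48 ± 0.48 (edgeR adjusted p = 0.000118) and -5.66 ± 1.18 (edgeR adjusted p = 0.000101) for basal against luminal progenitor and hormone-responsive cells. The latter was -4.90 without library 2. Mmp17, which is held by a lipid anchor, was low, with 108 UMIs in basal, 18 in luminal progenitor and 5 in hormone-responsive cells. Its calls as higher in basal cells had log2 fold changes of 2.78 ± 0.84 and 3.23 ± 0.44, which were 3.38 without library 1 and 4.29 without library 3, in that order (edgeR adjusted p = 0.001 and 0.00176 with all libraries).

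All 7 proteases of the proteoglycanase group, which cut versican and aggrecan or are close relatives of those that do, passed the filter. 5 of them were higher in basal than in luminal progenitor cells and 1 was lower, and all 7 were higher in basal than in hormone-responsive cells. Their median log2 fold changes were 4.90 and 5.09. Adamts1 (chr16:85793827-85803113, minus strand), which cuts versican, gave 1298, 373 and 584 CPM in basal cells, 23.8, 18.7 and 23.3 CPM in luminal progenitor cells and 15.2, 12.2 and 11.5 CPM in hormone-responsive cells. Basal cells lay above both luminal classes in every library. The basal level of library 1 was the highest and that of library 2 the lowest. Its fitted log2 fold change was 4.90 ± 0.82 (edgeR adjusted p = 3.37e-06) over luminal progenitor and 5.77 ± 0.80 (edgeR adjusted p = 2.27e-06) over hormone-responsive cells. The 38 cells with 3 or more pericyte markers held it at 2018 CPM, and 21 of them met the basal rule, of which 2, 11 and 8 were in libraries 1, 2 and 3. All 8 pericyte markers were detected among basal cells, where they summed to 36.4 to 39.9 CPM, against 79.6 to 91.2 CPM in luminal progenitor and 72.2 to 107 CPM in hormone-responsive cells, mostly from Notch3, with Kcnj8 at 0 in both luminal classes. The 86 cells with 3 or more endothelial markers held Adamts1 at 777 CPM, and 6 of them met the basal rule. Endothelial markers summed to 57.3, 22.4 and 27.6 CPM in basal cells of libraries 1, 2 and 3, in the same order as Adamts1. Their part in its level was not tested. Without cells that held a stromal (fibroblast or pericyte) marker UMI, a step that used no endothelial marker, the basal Adamts1 levels were 1322, 369 and 588 CPM. Its window (chr16:85803114-85803363, GRCm38.p6, minus strand) is shown because it was the basal member that varied most between libraries among those above 100 CPM, with GC boxes and a TATA box (TATAAA) in capitals.
Adamts1: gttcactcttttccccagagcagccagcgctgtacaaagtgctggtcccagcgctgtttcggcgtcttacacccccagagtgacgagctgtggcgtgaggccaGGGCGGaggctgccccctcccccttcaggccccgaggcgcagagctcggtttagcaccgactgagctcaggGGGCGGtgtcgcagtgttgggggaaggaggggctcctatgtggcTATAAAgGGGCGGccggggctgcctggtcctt

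The window holds 3 GC boxes and 1 TATAAA. Adamts5 (chr16:85856173-85901828, minus strand), an aggrecanase, is the neighbour of Adamts1, 53059 bases away with no protein-coding gene between, and gave 32.6, 6.55 and 6.63 CPM in basal cells, 0.878, 4.61 and 1.94 CPM in luminal progenitor cells and 0.802, 0 and 0.4995 CPM in hormone-responsive cells. As for Adamts1, its basal level was highest in library 1. The basal and luminal progenitor levels did not overlap, but those of library 2 were close. Its log2 fold change over luminal progenitor cells was 2.28 ± 2.28 (edgeR adjusted p = 0.0271), but 1.09 without library 1, 3.35 without library 2 and not called without library 3 (edgeR adjusted p = 0.0923) or with a looser class rule. Over hormone-responsive cells, with 3 UMIs, the pooled ratio was 31.6-fold (10.7 to 154), and the fit gave 5.04 with all libraries and 6.16 without library 3. Of its 487 UMIs in kept cells, 30.6% lay in fibroblast-marker cells. Adamts4 (chr1:171250421-171260637, plus strand), the other aggrecanase, gave 40.7, 16.4 and 19.6 CPM in basal cells, 0.195, 1.23 and 0.843 CPM in luminal progenitor cells and 0, 0.829 and 0.749 CPM in hormone-responsive cells. Library 1 again had the highest basal level, and no luminal library came near a basal one. edgeR gave a log2 fold change of 5.02 ± 1.57 (edgeR adjusted p = 5.82e-05) over luminal progenitor and 5.10 ± 1.73 (edgeR adjusted p = 0.00021) over hormone-responsive cells. Against luminal progenitor cells it was 4.17 without library 1 and 5.63 without library 2.

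Adamts9 (chr6:92772699-92943492, minus strand), a versican-cutting protease, gave 49.1, 115 and 59.4 CPM in basal cells, 0.975, 3.84 and 2.02 CPM in luminal progenitor cells and 17.6, 25.1 and 16.5 CPM in hormone-responsive cells. It was highest in basal cells, intermediate in hormone-responsive cells and lowest in luminal progenitor cells, with no overlap. The log2 fold changes were 5.01 ± 0.37 (edgeR adjusted p = 5.31e-07) for basal over luminal progenitor, 2.00 ± 0.29 (edgeR adjusted p = 3.65e-05) for basal over hormone-responsive and -3.01 ± 0.62 (edgeR adjusted p = 2.04e-05) for luminal progenitor over hormone-responsive cells. Its exons share 1381 bases with A730049H05Rik on the opposite strand, which had 7 UMIs in the 3 classes. Adamts20, its closest relative, gave 10.6, 11.7 and 9.34 CPM in basal cells and at most 0.461 CPM in luminal progenitor cells, a log2 fold change of 5.24 ± 0.73 (edgeR adjusted p = 0.000251). Hormone-responsive cells held no UMI of it against 225 in basal cells, so the basal level was at least 31.6-fold higher than a floor of 3 UMIs over the class.

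Adamts15 (chr9:30899155-30922452, minus strand), which cuts versican, went the other way. It gave 6.03, 5.88 and 3.52 CPM in basal cells, 36.9, 45.5 and 32.6 CPM in luminal progenitor cells and 4.81, 1.38 and 1.498 CPM in hormone-responsive cells. Luminal progenitor cells lay above both other classes in every library, while basal and hormone-responsive cells overlapped. On the log2 scale the difference was -2.97 ± 0.34 (edgeR adjusted p = 1.09e-05) for basal against luminal progenitor and 4.37 ± 0.96 (edgeR adjusted p = 1.06e-05) for luminal progenitor over hormone-responsive cells. The call as higher in basal than in hormone-responsive cells, at 1.40 ± 0.72 (edgeR adjusted p = 0.0132), was lost without library 2 and without library 3 (edgeR adjusted p = 0.158 and 0.0729). Adamts8, its neighbour at a distance of 20109 bases with no protein-coding gene between, gave 8.14, 8.09 and 7.58 CPM in basal cells, 6.44, 5.68 and 5.06 CPM in luminal progenitor cells and 0, 0.552 and 0 CPM in hormone-responsive cells. Its basal and luminal progenitor levels differed by less than 2-fold and were not called, and both stood above hormone-responsive cells, which held 2 UMIs. The pooled ratios were 35.1-fold (9.57 to 292) for basal and 25.3-fold (6.88 to 210) for luminal progenitor over hormone-responsive cells. The fitted log2 values of 5.09 and 4.65 became 8.61 and 8.17 without library 2, where that class was left with no UMI, and 4.33 and 3.92 without library 3. With doublets kept they were 4.13 and 3.80.

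**Figure D2:**
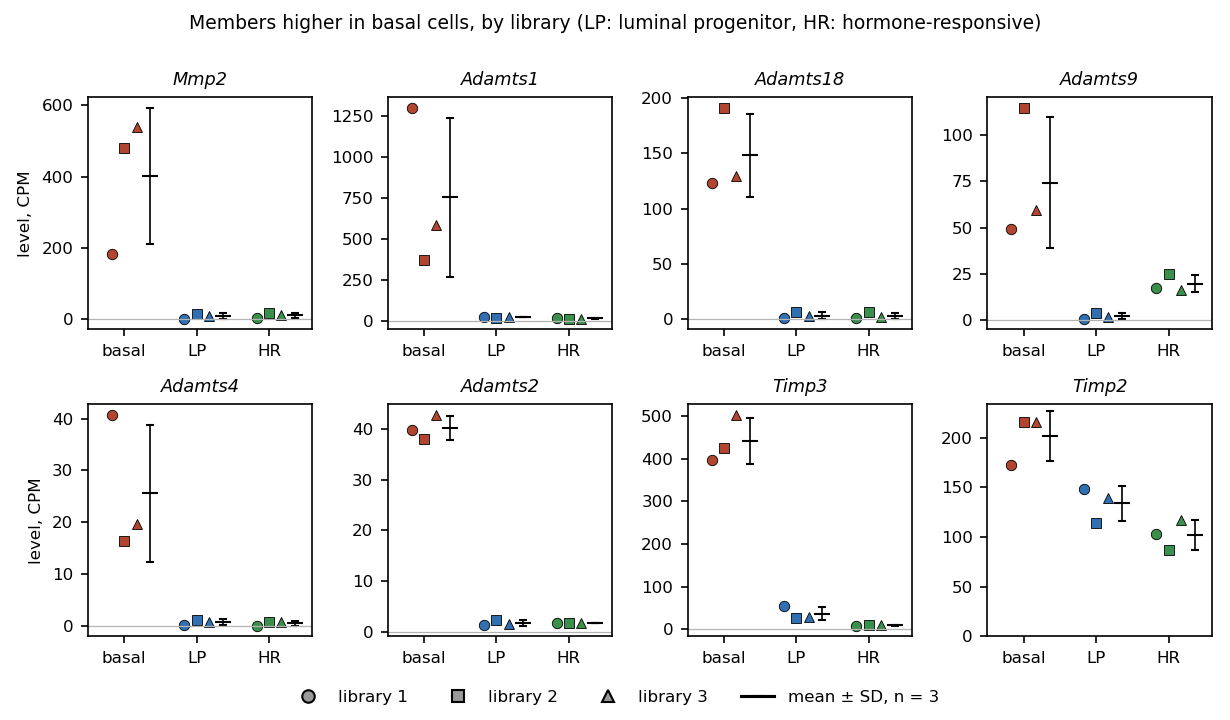
CPM of 8 members in the 3 classes (LP is luminal progenitor, HR is hormone-responsive), one point per library with its own symbol and a bar for mean ± SD, n = 3, each panel on its own linear axis. The basal points of Mmp2, Adamts1, Adamts18, Adamts9, Adamts4, Adamts2 and Timp3 all lie above both luminal classes, with library 1 lowest for Mmp2 and highest for Adamts1 and Adamts4, and those of Timp2 lie above by a smaller step.

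The procollagen ADAMTS cut the N-terminal propeptides from fibrillar procollagens. Adamts2 and Adamts3 were tested and moved in opposite directions. Adamts2 (chr11:50602084-50807573, plus strand) gave 39.8, 38.05 and 42.8 CPM in basal cells, 1.27, 2.304 and 1.43 CPM in luminal progenitor cells and 1.603, 1.66 and 1.75 CPM in hormone-responsive cells. Its basal level varied little between libraries, and its log2 fold change was 4.60 ± 0.47 (edgeR adjusted p = 5.92e-07) over luminal progenitor and 4.66 ± 0.11 (edgeR adjusted p = 1.61e-06) over hormone-responsive cells. Adamts3, which also takes part in the activation of VEGF-C, was low, with 33 UMIs in basal, 128 in luminal progenitor and 14 in hormone-responsive cells. It was called higher in luminal progenitor cells in both comparisons, at -1.36 ± 0.23 for basal over luminal progenitor and 1.52 ± 0.81 for luminal progenitor over hormone-responsive cells (edgeR adjusted p = 0.0086 and 0.016). Both calls were lost without library 2 and without library 3.

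Of the other ADAMTS proteases, 4 of 9 were tested, and all 4 were higher in basal than in hormone-responsive cells. Adamts18 (chr8:113697126-113848738, minus strand), a secreted protease with a known role in the mammary stem cell niche, gave 124, 191 and 130 CPM in basal cells, 0.975, 6.605 and 2.61 CPM in luminal progenitor cells and 1.603, 6.35 and 1.75 CPM in hormone-responsive cells. Every basal library lay far above every luminal one, and the luminal classes overlapped. The fitted difference in log2 was 5.61 ± 0.96 (edgeR adjusted p = 2.43e-06) over luminal progenitor and 5.68 ± 0.71 (edgeR adjusted p = 4.98e-06) over hormone-responsive cells, and the latter was 6.43 without library 2. Its window (chr8:113848840-113849089, GRCm38.p6, minus strand) is shown beside that of Adamts1 as a second strongly basal member, with its GC box in capitals.
Adamts18: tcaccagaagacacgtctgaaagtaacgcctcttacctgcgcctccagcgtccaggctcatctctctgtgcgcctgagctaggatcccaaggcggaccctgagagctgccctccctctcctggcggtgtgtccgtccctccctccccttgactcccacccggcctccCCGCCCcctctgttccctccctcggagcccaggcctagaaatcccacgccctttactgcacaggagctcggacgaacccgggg

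It holds 1 GC box and none of the other motifs searched. Adamts7 (chr9:90163069-90208071, plus strand), which cuts the cartilage oligomeric matrix protein, gave 17.5, 47.9 and 32.5 CPM in basal cells, 3.02, 7.07 and 6.41 CPM in luminal progenitor cells and 1.603, 4.97 and 3.496 CPM in hormone-responsive cells. Basal cells lay above both luminal classes. The log2 fold change was 2.49 ± 0.23 (edgeR adjusted p = 3.24e-06) over luminal progenitor and 3.33 ± 0.09 (edgeR adjusted p = 2.47e-06) over hormone-responsive cells. Its exons share 122 bases with Tbc1d2b on the opposite strand, which had 357, 185 and 61 UMIs in the 3 classes, beside 795, 153 and 34 of Adamts7. Adamts17 (chr7:66839735-67153171, plus strand), linked to fibrillin microfibrils, gave 9.34, 27.6 and 18.7 CPM in basal cells, 4.68, 15.7 and 11.1 CPM in luminal progenitor cells and 0, 0.829 and 0.749 CPM in hormone-responsive cells. It was carried by basal and luminal progenitor cells, which overlapped, and was nearly absent from hormone-responsive cells. In the fit, the log2 fold change was 5.02 ± 0.37 (edgeR adjusted p = 2.78e-06) for basal and 4.23 ± 0.21 (edgeR adjusted p = 1.62e-05) for luminal progenitor over hormone-responsive cells, and 0.79 ± 0.18 for basal over luminal progenitor cells, which was under 2-fold. With doublets kept the former pair were 4.16 and 3.45. Adamts10 (chr17:33524204-33553782, plus strand), which also binds fibrillin microfibrils, gave 13.3, 23.8 and 20.2 CPM in basal cells, 19.01, 10.9 and 9.78 CPM in luminal progenitor cells and 4.81, 6.35 and 4.495 CPM in hormone-responsive cells. Hormone-responsive cells were lowest and did not overlap the other classes. Its fitted log2 fold change was 1.96 ± 0.31 (edgeR adjusted p = 0.00129) for basal and 1.42 ± 0.61 (edgeR adjusted p = 0.0121) for luminal progenitor over hormone-responsive cells, and the latter was not called without library 3 (edgeR adjusted p = 0.0665). Basal over luminal progenitor cells it was 0.54 ± 0.85 (edgeR adjusted p = 0.126), and it was called without library 1, where it was 1.06.

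The ADAMTS-like genes Adamtsl4, whose product binds fibrillin microfibrils, and Adamtsl5 were tested. Adamtsl4 had 189, 191 and 29 UMIs in basal, luminal progenitor and hormone-responsive cells and was called higher in basal than in hormone-responsive cells, at 1.57 ± 0.29 (edgeR adjusted p = 0.000639). Luminal progenitor over hormone-responsive cells it was 1.05 ± 0.05 (edgeR adjusted p = 0.00971), close to the 2-fold limit, and 6 of 14 alternatives lost the call, among them leaving out library 2 or library 3. Adamtsl5 had 75, 7 and 3 UMIs. It was higher in basal cells, at 3.78 ± 0.78 (edgeR adjusted p = 0.000332) over luminal progenitor cells and with a pooled ratio of 10.5-fold (3.46 to 52.2) over hormone-responsive cells. The first was 4.40 without library 2, and the second was not called without library 3.

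Of 9 tested ADAMs, 3 were higher in basal cells than in each luminal class, and Adam10, Adam15 and Adam9 were higher in hormone-responsive than in luminal progenitor cells. Their median log2 fold changes were 0.49 for basal over luminal progenitor and -0.20 for basal over hormone-responsive cells. Adam10 (chr9:70678997-70780229, plus strand), a sheddase of Notch receptors and E-cadherin, gave 32.8, 57.9 and 47.5 CPM in basal cells, 44.3, 56.5 and 53.7 CPM in luminal progenitor cells and 356, 335 and 319 CPM in hormone-responsive cells. Hormone-responsive cells stood clear of both other classes in every library, and basal and luminal progenitor cells overlapped. edgeR gave a log2 fold change of -2.79 ± 0.41 (edgeR adjusted p = 1.84e-06) for basal and -2.58 ± 0.26 (edgeR adjusted p = 4.03e-06) for luminal progenitor against hormone-responsive cells, and -0.21 ± 0.19 (edgeR adjusted p = 0.285) for basal against luminal progenitor cells, which was not called. Its window (chr9:70678732-70678981, GRCm38.p6, plus strand) is shown as that of a sheddase whose level was highest in hormone-responsive cells, with GC boxes, CCAAT boxes and an E-box (CACGTG, the same on both strands) in capitals. A pair of the GC boxes overlap.
Adam10: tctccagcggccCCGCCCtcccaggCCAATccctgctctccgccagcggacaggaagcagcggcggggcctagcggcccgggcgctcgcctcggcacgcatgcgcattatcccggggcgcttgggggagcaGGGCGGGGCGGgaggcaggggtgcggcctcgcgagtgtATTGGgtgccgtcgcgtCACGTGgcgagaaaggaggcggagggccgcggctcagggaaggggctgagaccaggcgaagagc

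The window holds 3 GC boxes, 2 CCAAT boxes and 1 E-box. Adam17 (chr12:21323509-21373632, minus strand), the sheddase of tumour necrosis factor and of amphiregulin, gave 29.2, 29.7 and 24.6 CPM in basal cells, 23.2, 27.5 and 22.3 CPM in luminal progenitor cells and 24.8, 32.6 and 32.5 CPM in hormone-responsive cells. All 3 classes overlapped, and no comparison was called. The log2 fold changes were 0.15 ± 0.18, -0.05 ± 0.36 and -0.20 ± 0.20, with edgeR adjusted p-values of 0.396, 0.823 and 0.331. Its exons share 311 bases with Iah1 on the opposite strand, which had 885, 789 and 401 UMIs in the 3 classes. Adam15 (chr3:89338542-89349996, minus strand), a membrane ADAM that also binds integrins, gave 35.6, 38.2 and 38.7 CPM in basal cells, 29.4, 22.9 and 25.7 CPM in luminal progenitor cells and 51.3, 70.2 and 64.2 CPM in hormone-responsive cells. The 3 classes did not overlap, with hormone-responsive cells highest. Luminal progenitor against hormone-responsive cells were called at -1.13 ± 0.42 (edgeR adjusted p = 0.000602), and the call was lost without library 2, at -0.92. Adam9 (chr8:24949611-25016927, minus strand), another membrane ADAM, gave 32.2, 25.2 and 22.5 CPM in basal cells, 30.03, 21.4 and 19.5 CPM in luminal progenitor cells and 45.7, 57.7 and 53.4 CPM in hormone-responsive cells. Hormone-responsive cells were above both other classes. Luminal progenitor against hormone-responsive cells were called at -1.07 ± 0.48 (edgeR adjusted p = 0.00169) and lost without library 2 (-0.92) and without library 3 (-0.95), and basal against hormone-responsive cells, at -0.94 ± 0.47 (edgeR adjusted p = 0.00231), were called only without library 1 among the libraries left out, at -1.10.

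The 3 ADAMs higher in basal cells were low. Adam12, a meltrin expressed in muscle and mesenchyme, had 102, 8 and 2 UMIs in basal, luminal progenitor and hormone-responsive cells, of which library 1 gave 14.5 CPM in basal cells against 3.95 and 1.76 CPM. Its log2 fold change over luminal progenitor cells was 4.12 ± 1.86 (edgeR adjusted p = 0.00171), 2.66 without library 1 and 4.91 without library 2. Without cells that held a stromal marker UMI it fell below the filter on low counts, while its basal levels were 14.07, 4.155 and 1.559 CPM. Over hormone-responsive cells the pooled ratio was 21.5-fold (5.79 to 180), and the fitted log2 value of 4.32 was 3.45 without library 1 and 7.93 without library 2. Adam19, the related meltrin, had 90, 5 and 1 UMIs, with a log2 fold change of 4.27 ± 0.08 (edgeR adjusted p = 0.000113) over luminal progenitor cells and a pooled ratio of 37.9-fold (6.63 to 1512.1) over hormone-responsive cells. The luminal progenitor libraries held 1, 2 and 2 UMIs of Adam19. The prior count of 2 behind the SD is of that size, so the SD of 0.08 understates the spread. Its fitted log2 value over hormone-responsive cells, 5.07, was 4.25 without library 2 and 7.78 without library 3. Its exons share 587 bases with the antisense gene Gm16033, which had 23 UMIs in basal cells and 0 in the others. Adam22, a receptor for the secreted protein LGI1, had 110, 3 and 0 UMIs. The pooled ratio over luminal progenitor cells was 49.8-fold (16.6 to 245), and the basal level was at least 15.4-fold higher than a floor of 3 UMIs in hormone-responsive cells. Adam8 and Adam28, known from leukocytes, were tested at 33, 30 and 29 and at 38, 29 and 19 UMIs and were called in no comparison.

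**Figure D3:**
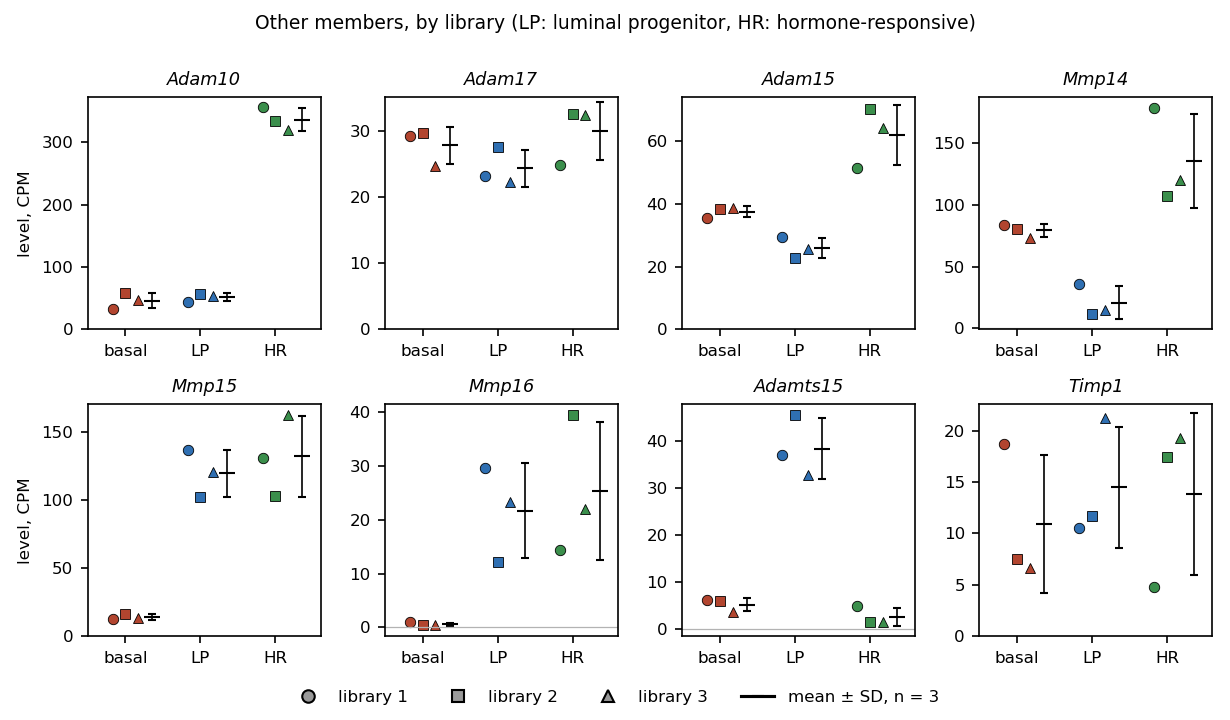
CPM of 8 further members in the 3 classes (LP is luminal progenitor, HR is hormone-responsive), one point per library with a bar for mean ± SD, n = 3, each panel on its own linear axis. Adam10 stands at 319 to 356 CPM in hormone-responsive cells and below 58 CPM elsewhere, Mmp15 and Mmp16 are low in basal cells alone, Adamts15 is high in luminal progenitor cells alone, and Adam17 and Timp1 overlap across classes.

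The TIMPs differed from one another. Timp3 (chr10:86300372-86349506, plus strand), which binds to the matrix and also blocks ADAM17 and several ADAMTS proteases, gave 397, 425 and 502 CPM in basal cells, 53.6, 26.1 and 28.5 CPM in luminal progenitor cells and 8.02, 11.05 and 9.99 CPM in hormone-responsive cells. The 3 classes did not overlap: basal cells were highest and hormone-responsive cells lowest, and luminal progenitor cells of library 1 stood above those of libraries 2 and 3. On the log2 scale the difference was 3.62 ± 0.63 (edgeR adjusted p = 4.84e-06) for basal over luminal progenitor, 5.52 ± 0.26 (edgeR adjusted p = 1.29e-06) for basal over hormone-responsive and 1.90 ± 0.79 (edgeR adjusted p = 0.000819) for luminal progenitor over hormone-responsive cells. Basal over hormone-responsive cells it was 4.91 with doublets kept. Its exons share 1733 bases with Syn3 on the opposite strand, which had 56, 50 and 4 UMIs in the 3 classes, beside 9441, 1058 and 90 of Timp3. Timp2 (chr11:118301069-118355740, minus strand), which blocks MMPs and also takes part in Mmp2 activation by Mmp14, gave 172, 216 and 216 CPM in basal cells, 149, 114 and 139 CPM in luminal progenitor cells and 103, 86.8 and 117 CPM in hormone-responsive cells. Basal cells were above both luminal classes, and the luminal classes overlapped. The log2 fold change over hormone-responsive cells was 1.09 ± 0.24 (edgeR adjusted p = 0.000185), near the 2-fold limit, and it was 0.94 and not called without library 2, and not called with scaling by total counts alone. Over luminal progenitor cells it was 0.56 ± 0.31 (edgeR adjusted p = 0.00726), under 2-fold. Timp1 (chrX:20870166-20874735, plus strand), an inhibitor of many MMPs, gave 18.7, 7.51 and 6.63 CPM in basal cells, 10.5, 11.7 and 21.2 CPM in luminal progenitor cells and 4.81, 17.4 and 19.2 CPM in hormone-responsive cells. The classes overlapped and no comparison was called with all libraries, where the log2 fold changes were -0.53 ± 1.29, -0.49 ± 1.92 and 0.04 ± 0.84 (edgeR adjusted p = 0.388, 0.469 and 0.961). Library 1 ordered the classes differently from libraries 2 and 3. Without it, basal cells were called lower than luminal progenitor cells at -1.21 and lower than hormone-responsive cells at -1.21 (edgeR adjusted p = 0.000976 and 0.00186). Timp4 had 3, 4 and 0 UMIs and was not tested.

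**Figure D4:**
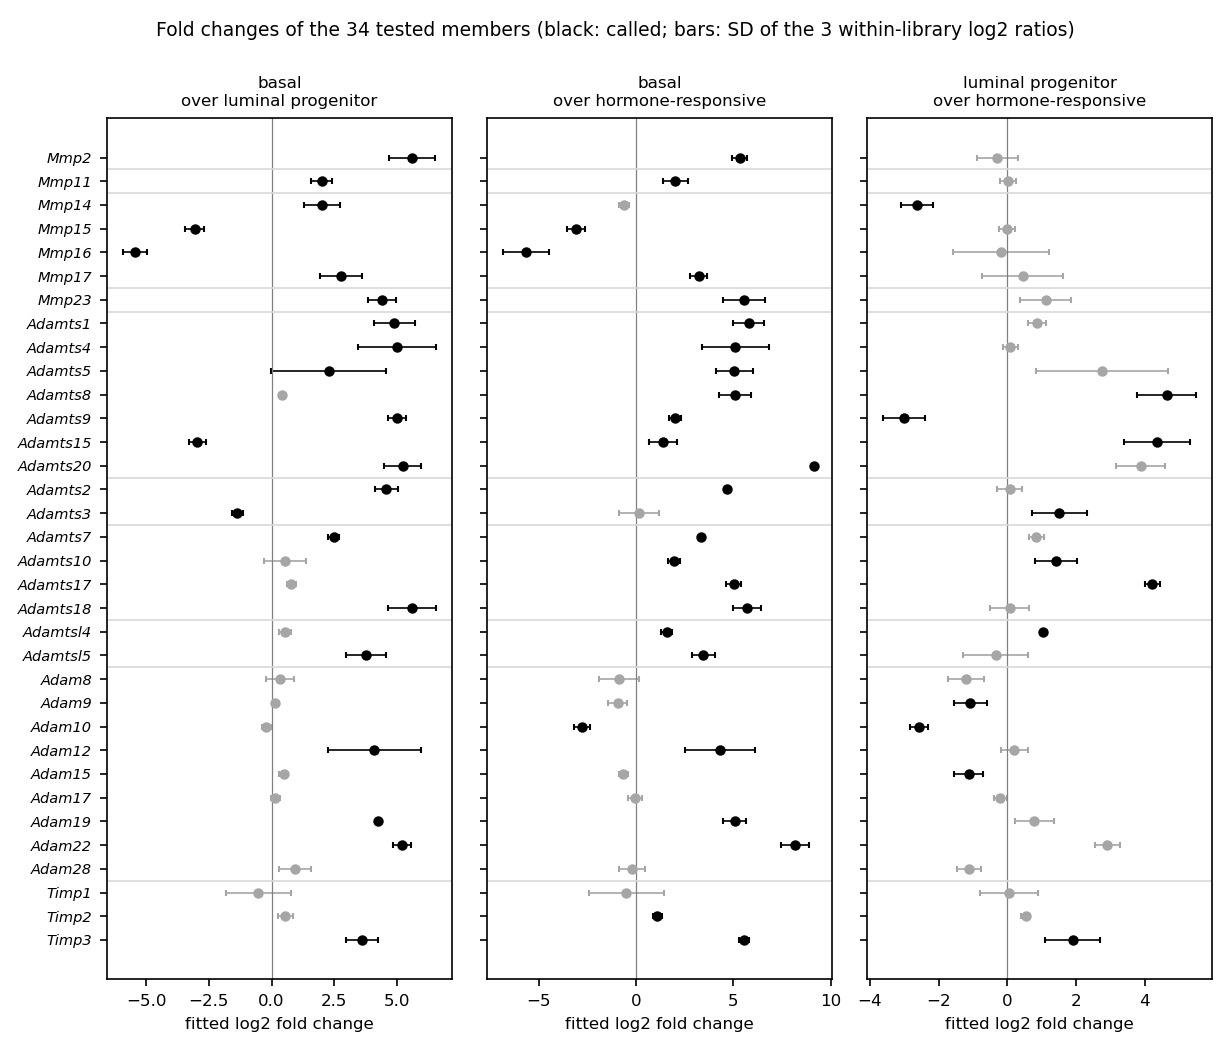
Fitted log2 fold change of the 34 tested members (rows) in the 3 comparisons (panels, each with its own axis), black where called and grey where not, with bars for the SD over the 3 libraries of the ratio within each. In both basal panels most black points lie to the right of 0, the exceptions being Mmp15 and Mmp16 in both, Adamts15 and Adamts3 in the first and Adam10 in the second. The values of Adamts20 and Adam22 over hormone-responsive cells, a class with no UMI of either, depend on the prior count.

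The share of cells with a UMI was compared after thinning each cell to 1500 UMIs, which left out 2167 basal, 658 luminal progenitor and 188 hormone-responsive cells. Median depths before thinning were 1970, 3213.5 and 3527 UMIs. Mmp2 was found in 41.4 ± 15.6% of thinned basal cells (mean ± SD, n = 3 libraries), 1.39 ± 1.08% of luminal progenitor cells and 1.68 ± 0.966% of hormone-responsive cells, and in 49.3%, 3.36% and 3.84% without thinning. Timp3 was found in 39.8 ± 3.28%, 4.08 ± 1.01% and 1.55 ± 0.113% of thinned cells and in 48%, 8.05% and 3.01% unthinned. For Adamts1 the thinned shares were 34.4 ± 13.6%, 3 ± 0.393% and 1.97 ± 0.385% and the unthinned ones 39.4%, 6.33% and 4.27%. By library, Mmp2 was in 23.4%, 50.2% and 50.7% of thinned basal cells, so library 1 lay well below libraries 2 and 3. Adam10 was found in 6.29 ± 1.85%, 6.84 ± 0.68% and 36.7 ± 0.22% of thinned cells and in 9.26%, 17% and 63.2% unthinned, and Mmp14 in 11.3 ± 0.891%, 2.93 ± 1.63% and 17.6 ± 4.72% and in 15.5%, 6.87% and 35.3%. Mmp15 was found in 2.17 ± 0.401%, 16.6 ± 2.37% and 17.1 ± 5.07% of thinned cells and in 2.99%, 32.2% and 34.4% unthinned. For comparison, Acta2, a muscle actin of basal cells, was found in 15.8 ± 8.31% of thinned luminal progenitor and 16.8 ± 8.87% of hormone-responsive cells, and Csn3, a milk protein gene, in 17 ± 4.65% of basal cells, although the class rule holds both low there. Unthinned these were 32%, 31.6% and 23.2%.

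A low luminal level of a basal member can be set beside that of genes that myoepithelial cells make in quantity. For Krt5, Krt14 and Acta2, which the class rule holds low, and Tagln, Myh11 and Cnn1, chosen after their values were seen, the luminal progenitor level was 0.823 to 1.4% of the basal one in library 1, 1.25 to 5.81% in library 2 and 1.36 to 2.99% in library 3. In hormone-responsive cells it was 0.562 to 1.73%, 0.877 to 4.11% and 0.938 to 2.11%. Mmp2 in luminal progenitor cells stood at 0.846, 3.32 and 1.98% of its basal level, not above that range in any library, and in hormone-responsive cells at 2.17, 3.56 and 2.5%, above it in libraries 1 and 3. Adamts18 was at 0.789, 3.46 and 2.01% and 1.3, 3.32 and 1.34%, within or below the range in each library and class. Adam22 was too, but with 3 UMIs in luminal progenitor and 0 in hormone-responsive cells, too few to place it against the range. Adamts1 was within it in hormone-responsive cells, at 1.17, 3.26 and 1.97%, and above it in libraries 1 and 3 in luminal progenitor cells, at 1.83, 5.03 and 3.98%. Whether luminal UMIs within the range came from these cells or from free RNA was not tested. Timp3 in luminal progenitor cells stood above the range in every library, at 13.5, 6.14 and 5.67%, and in hormone-responsive cells above it in library 1 alone, at 2.02, 2.6 and 1.99%. Adamts9 in hormone-responsive cells stood above it in all 3, at 35.9, 21.9 and 27.7%.

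Cells with markers of other types held part of the UMIs of several members. Cells with 3 or more markers of another type were few, and some also met a class rule: 168 fibroblast-marker, 86 endothelial-marker, 38 pericyte-marker and 22 immune-marker cells, all 3 libraries together. The levels below are pooled over libraries, without a test. Mmp3, a stromelysin, had 187 of its 208 UMIs in fibroblast-marker cells, Mmp19 27 of 33 and Mmp27 6 of 6, while these cells held 0.559% of all UMIs. Adamts5 and Mmp11 had 30.6% and 27.4% of their UMIs there, and Mmp2, which stood at 1642 CPM in these cells, 5.63%. Timp4 had 15 of 24 UMIs in endothelial-marker cells. These cells also held Adamts9 at 355 CPM, Adam15 at 307 CPM and Adamts4 at 265 CPM, from 59, 51 and 44 UMIs. Pericyte-marker cells held Timp3 at 2526 CPM, Adamts1 at 2018 CPM and Adamts4 at 607 CPM, each above its mean in basal cells (441 ± 54.7 CPM, 752 ± 485 CPM and 25.6 ± 13.2 CPM, n = 3). Without every cell that held a stromal marker UMI, basal Timp3 was 394, 417 and 503 CPM. Then 17 members were called higher in basal than in luminal progenitor and 22 higher than in hormone-responsive cells, against 18 and 23 with all cells. This setting tested 33 members, Adam12 having fallen below the filter on low counts, and 12448 genes. Of all genes 3865 and 4455 were called in either direction, 54.8% and 57.4% of them higher in basal cells. With all cells 3963 and 4553 of 12667 were called, 55.1% and 57.7% of them higher in basal cells.

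**Figure D5:**
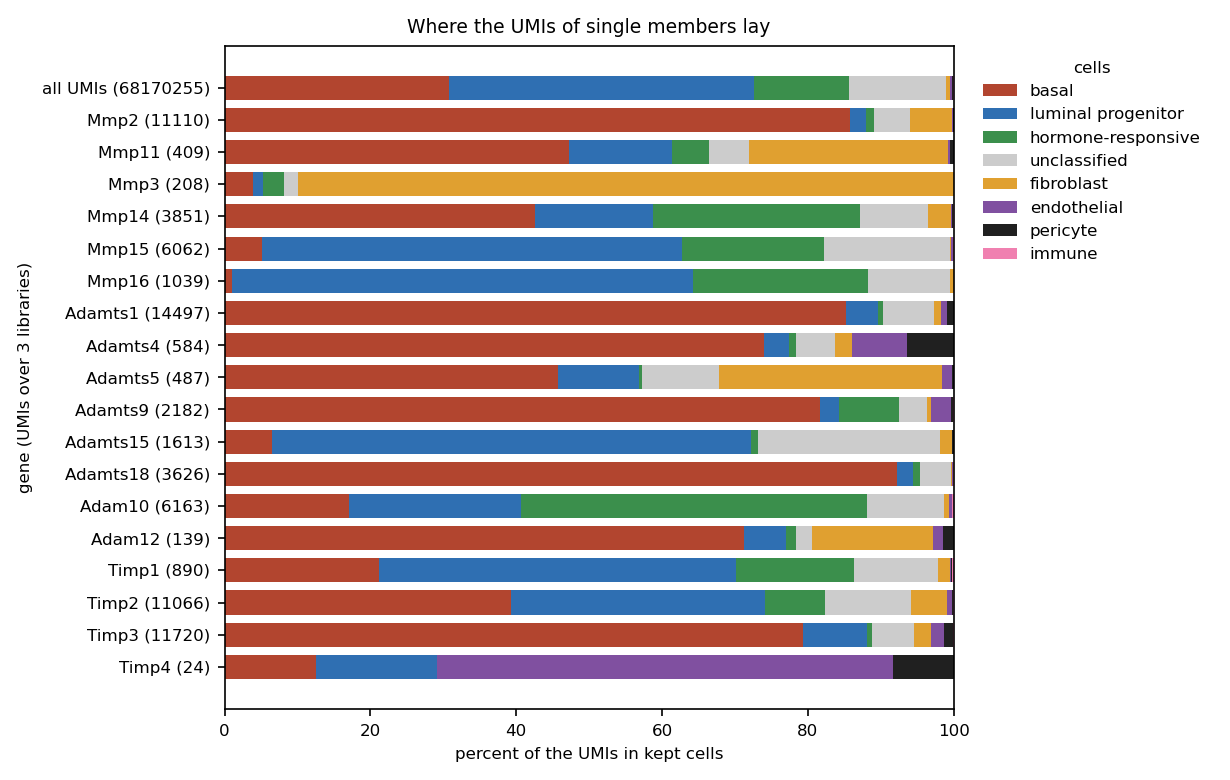
Share of the UMIs of single members, and of all UMIs (top bar), that lay in the 3 classes, in unclassified cells and in cells with markers of other types (percent of UMIs in kept cells, 3 libraries pooled, total UMIs in parentheses). Basal cells held 85.9% of Mmp2 UMIs, fibroblast-marker cells nearly all of Mmp3, and endothelial-marker cells most of the 24 UMIs of Timp4.

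The 30 members that did not reach the test had at most 66 UMIs over the 9 sums, and their highest class mean was 2.43 CPM. They were 10 ADAMs, 6 ADAMTS proteases, 3 ADAMTS-like genes, 10 MMPs and Timp4. Adamts19, Mmp8, Mmp12 and Mmp27 had no UMI in any class. Mmp8, a neutrophil collagenase, was the only member of the collagenase group in the tables. The matrilysin Mmp7 had 1 UMI in each class, and Mmp28 likewise. The best represented of the 30 were Adam11, with 45, 14 and 7 UMIs in basal, luminal progenitor and hormone-responsive cells, Adamtsl1, with 44, 17 and 1, and Adamtsl3, with 53, 1 and 0. Adamts13, the protease of von Willebrand factor, had 3, 32 and 1 UMIs. Differences among these counts were not tested. Adamtsl1 stood at 108 CPM in fibroblast-marker cells, from 41 UMIs.

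Other proteases, inhibitors and substrates were taken from 9 lists of 115 genes in all, 107 of them in the tables. Their counts can be read against all genes tested, of which 17.2% were higher in basal and 14% in luminal progenitor cells, 20.7% in basal and 15.2% in hormone-responsive cells, and 14.2% in luminal progenitor and 10.4% in hormone-responsive cells. The lists were chosen with earlier results of these data known, so an excess over these shares may lie in the choice. With 5 to 13 tested genes in a list, 1 gene is a large share of it. Medians of all genes in the same comparisons are those given above. In the plasminogen activation list, 6 of 8 tested genes were higher in basal than in luminal progenitor cells and 5 higher than in hormone-responsive cells, and none was lower. The list medians were 3.16 and 1.60. Plat, tissue plasminogen activator, stood at 83.5 ± 28.8 CPM in basal, 3.37 ± 1.35 CPM in luminal progenitor and 5.72 ± 0.614 CPM in hormone-responsive cells (4.56 ± 1.03, edgeR adjusted p = 6.52e-06 over luminal progenitor cells). Plau, urokinase, stood at 14.01 ± 1.22 CPM in basal and 0.887 ± 0.481 CPM in luminal progenitor cells (3.88 ± 0.59, edgeR adjusted p = 0.000109). Of 11 tested genes of the MMP modulator list, 6 were higher and 1 lower in basal than in luminal progenitor cells, and 8 were higher and 1 lower than in hormone-responsive cells (medians 1.65 and 3.50). Spock2, a testican, stood at 92.5 ± 24.6 CPM in basal and 2.71 ± 1.62 CPM in luminal progenitor cells (5.09 ± 0.71, edgeR adjusted p = 1.29e-06). Pcsk5, a proprotein convertase, was 5.76 ± 1.13, edgeR adjusted p = 5.07e-06 over hormone-responsive cells, and Thbs1, thrombospondin, 5.47 ± 0.81, edgeR adjusted p = 2.35e-05. The proteoglycan and elastic-fibre list had 11 of 13 tested genes higher in basal than in luminal progenitor cells and 10 higher than in hormone-responsive cells, with 2 and 1 lower (medians 4.42 and 5.24). Bgn, biglycan, was 5.95 ± 0.84, edgeR adjusted p = 1.11e-06 over luminal progenitor cells, and Fmod, fibromodulin, 5.56 ± 0.34, edgeR adjusted p = 2.74e-07. Thsd4, an ADAMTS-like gene by family though not by symbol, was lower in basal cells, at -4.76 ± 0.38, edgeR adjusted p = 5.41e-06. Dcn is in this list and among the fibroblast markers, whose basal sum was given above, and their part in the list's count was not tested.

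The lists tied to membrane proteases ran otherwise. Of 11 tested membrane serine proteases and their Kunitz inhibitors, 8 were lower and 1 higher in basal than in luminal progenitor cells, and 9 lower and 1 higher than in hormone-responsive cells (medians -2.05 and -2.86). Tmprss13 was -4.51 ± 0.05, edgeR adjusted p = 3.22e-07 and Prss8 -3.31 ± 0.21, edgeR adjusted p = 1.73e-06 for basal over luminal progenitor cells, while Prss23 was 4.66 ± 0.43, edgeR adjusted p = 5.89e-07. Of 8 escort proteins of ADAM10 and ADAM17, 5 were lower and 1 higher in basal than in luminal progenitor cells, and 4 lower and 1 higher than in hormone-responsive cells (medians -1.29 and -0.57). The tetraspanin Tspan33 was -4.65 ± 0.42, edgeR adjusted p = 1.16e-06 and Tspan15 -2.05 ± 0.38, edgeR adjusted p = 2.74e-05 for basal over luminal progenitor cells, and Tspan5 was 2.57 ± 0.10, edgeR adjusted p = 1.68e-05. Between the luminal classes 2 escort genes were higher in luminal progenitor cells, Tspan33 and Tspan15, and 0 in hormone-responsive cells, where Adam10 was highest. Of 8 tested EGF-family ligands, 5 were higher and 1 lower in basal than in luminal progenitor cells (median 1.57). Against hormone-responsive cells, 4 were higher and 2 lower in basal cells (median 0.73). Areg, the gene of amphiregulin, is a class-rule gene and is not in this list. It stood at 970 to 1708 CPM in hormone-responsive and 7.85 to 19.4 CPM in basal cells, levels that the rule partly sets. Nrg1, a neuregulin, was 5.29 ± 0.34, edgeR adjusted p = 1.82e-06 and Btc, betacellulin, -4.26 ± 0.47, edgeR adjusted p = 6.68e-06 for basal over luminal progenitor cells.

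The remaining lists were mixed. In the tolloid, HTRA and procollagen processing list, 3 of 5 genes were higher in basal than in luminal progenitor cells and 1 higher than in hormone-responsive cells, with none lower (medians 2.49 and 0.24). Htra1, a secreted serine protease, was 4.86 ± 0.47, edgeR adjusted p = 9.7e-07 over luminal progenitor cells. Of 10 cysteine cathepsins and cystatins, 3 were higher and 2 lower in basal than in luminal progenitor cells and 5 higher and 1 lower than in hormone-responsive cells (medians 0.24 and 0.87). Ctsh, a lysosomal protease, was -3.46 ± 0.22, edgeR adjusted p = 6.24e-07 for basal over luminal progenitor cells. Of 8 genes of the neprilysin and ectopeptidase list, 2 were higher and 4 lower in basal than in luminal progenitor cells and 5 higher and 1 lower than in hormone-responsive cells (medians -0.57 and 1.27). Mme, neprilysin, stood at 200 ± 82.1 CPM in basal, 51.2 ± 26.5 CPM in luminal progenitor and 4.41 ± 1.16 CPM in hormone-responsive cells, at 5.30 ± 1.03, edgeR adjusted p = 1.4e-06 over the latter. Between the luminal classes 0, 5, 2, 0, 0, 0, 3, 3 and 4 genes were higher in luminal progenitor and 1, 1, 0, 3, 2, 5, 0, 1 and 1 in hormone-responsive cells, for the lists in the order plasminogen activation, MMP modulators, escort proteins, EGF-family ligands, tolloid and HTRA, membrane serine proteases, cathepsins, ectopeptidases and matrix substrates.

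Within basal cells, those with a UMI of Mmp2 after thinning were set beside those without, library by library and with no test. Eln and Fmod, which are not members, were chosen with earlier results of these data known. Their shares beside Mmp2 are therefore not independent of that choice. Eln, the gene of elastin, was found in 31.9%, 49.4% and 36.3% of the basal cells with an Mmp2 UMI and in 26.4%, 31.9% and 27.6% of those without. Adamts1 was found in 43.8%, 20.1% and 29.5% against 51.3%, 26.2% and 31.3%. The Eln share was higher beside Mmp2 in each of the 3 libraries and the Adamts1 share was lower, by the smallest margin in library 3. Fmod was also higher in each library, at 14.6%, 36.5% and 33.8% against 11.1%, 28.7% and 30.2%. Adamts18 was also lower in each, at 12.8%, 21.7% and 15.6% against 15.4%, 25.3% and 16.6%. Timp3 changed direction between libraries, at 34.4%, 43.7% and 44.4% against 37.4%, 34.8% and 42%. So did Timp2, at 26%, 27.5% and 28.2% against 21%, 27.2% and 28.8%. For Mmp14, which activates Mmp2, the shares were 11.8%, 11.8% and 10.4% against 11.8%, 11.8% and 10.1%.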

How the data were processed

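Single-cell RNA-seq of sorted mammary epithelium was available as 3 libraries of 1 group. The deposited values are raw UMI counts per gene and barcode, made by the authors with Cell Ranger 2.1.0 on build mm10, per the submitters' processing notes; gene annotation and strand setting: not given in the sources used here. No column of per-sample values was left unused (0 columns).

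Cells with at least 500 genes and under 10% mitochondrial UMIs were kept, and doublets were removed with Scrublet (scanpy 1.11.5) at 0.8% per 1000 barcodes. Cells were classed by the rule in the text, and the raw counts of each class were added up within a library. CPM values use the total count of each sum, from 1247321 to 11857586 UMIs. The sums were tested with edgeR 4.0.16 (R 4.3.3, TMM scaling, a low-count filter, the library as a block), with p-values adjusted over 12667 genes and the 11 class-rule genes left out. Log2 CPM behind the SDs of within-library ratios used a prior count of 2, which can narrow an SD where a class holds few UMIs. DESeq2 1.42.0 was an alternative. The script was tested on simulated data.

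The library number pairs sums of the same sample: deviations from class means correlated at r = 0.262 to 0.519 within a library and at most 0.112 between libraries, over 8898 genes.

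Members and gene lists were chosen with earlier results of these data known. Members called in at least 1 comparison with a class mean of at least 10 CPM are given by library, others called by counts; Timp1 to Timp4, Mmp2, Mmp14, Adam10 and Adam17 are given in any case; from each list up to 2 called genes per direction and comparison are named. Mmp11, Adamts8 and basal Adam12, below that level, are also given by library. Mmp3, Mmp7, Mmp8, Mmp9, Mmp12, Mmp19, Mmp27, Mmp28, Adamts19, Adamtsl1, Adamtsl3, Adam11, Adamts13, Adam8 and Adam28 are named outside this rule, after their values were seen. Gene coordinates come from GENCODE vM21 (GRCm38, the same assembly as mm10), and promoter windows from RefSeq (GRCm38.p6), where 40 of 64 members had one. Counting intervals and floors cover counting error only. One gene overlap is not reported here.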

Additional observations from a re-analysis of the deposited data

How the results depend on the processing

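The alternatives were followed for 96 pairs of a member and a comparison. Adam8 and Adam28, tested but called in no comparison, are not among these pairs. Of the 96, 81 kept their direction and their side of the threshold under all 15 alternatives that could be run for them, and 15 changed. No call reversed. With sums thinned to the smallest total, where 22 members were tested in place of 34, 11 members were called higher in basal than in luminal progenitor cells (18 without thinning), 13 higher in basal than in hormone-responsive cells (23) and 4 higher in luminal progenitor than in hormone-responsive cells (7). Of all 10026 genes then tested, 2703, 3347 and 2223 were called in these comparisons, in either direction. Without thinning, 3963, 4553 and 3111 of 12667 were. Leaving out a library in turn gave 18 to 20 and 3 to 5 members higher in basal and in luminal progenitor cells, 22 to 23 and 3 to 5 higher in basal and in hormone-responsive cells, and 4 to 8 and 3 to 6 higher in luminal progenitor and in hormone-responsive cells. The 5 higher in hormone-responsive than in basal cells came without library 1, which added Adam9 and Timp1. The 4 higher in luminal progenitor cells came without library 3 and the 3 higher in hormone-responsive cells without library 2. Without libraries 1, 2 and 3 in turn, 35, 35 and 33 members and 12892, 12584 and 12390 genes were tested. Of all genes, 4231, 3585 and 3370 were called between basal and luminal progenitor cells, and 4759, 4172 and 3976 between basal and hormone-responsive cells. Between the luminal classes 3488, 2526 and 2319 were, so these shifts are not results about the members alone. Without the library block the member counts were 18, 4, 23, 3, 7 and 5, as with it, so the block changed no member count. Of 60 called pairs, 25 moved by more than 1.5 times under at least 1 alternative. Scaling moved the median of all genes by over 0.1 on the log2 scale in 2 comparisons, by 0.10 for basal over luminal progenitor cells with RLE factors and by -0.13 for luminal progenitor over hormone-responsive cells with total counts. The alternative without cells holding a stromal marker UMI was chosen after seeing the data. Levels below about 10 CPM rest on few UMIs, above all in hormone-responsive cells of library 1.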
